A study of Mus musculus with 30 samples.

Results

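Smooth muscle contractile genes code for the filaments, motor, anchors, channels and transcription factors with which a smooth muscle cell shortens. Their levels were examined in the colon of mice kept on a control or a high-fat diet. The set was a fixed list of 33 gene names, matched by name and identifier to a table of 46078 genes, and all 33 were found. RNA-seq of ribosomal RNA-depleted total RNA had been made from colon pieces of 30 C57BL/6J mice in 5 groups of 6 animals. CD F and CD M were females and males on control diet (CD) with vehicle, HFD F and HFD M were females and males on high-fat diet (HFD) with vehicle, and HFD+E2 M were HFD males given estradiol (E2, 0.5 mg per kg body weight). The diets ran for 13 weeks from an age of 5 to 6 weeks, and every animal received vehicle or E2 in 9 intraperitoneal injections over the last 3 weeks. The females kept their ovaries, no group carried a genetic change, and no E2-treated female or E2-treated CD male was part of the series.

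The muscle coat of the colon consists of an inner circular and an outer longitudinal layer of smooth muscle, which mix and move the content. A smooth muscle cell contracts when calcium enters through voltage-gated channels or leaves internal stores, binds calmodulin and activates myosin light chain kinase. The phosphorylated myosin then pulls on actin filaments, which are tied to the membrane and to the intermediate filament network. Serum response factor and its partner myocardin switch on many of the genes for these proteins. The RNA came from pieces that held both mucosa and muscle, so that the level of a contractile gene depended both on the amount of muscle in the piece and on the level within each muscle cell. Fewer muscle cells and less RNA per muscle cell cannot be told apart in such bulk samples.

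Between 8667177 and 17243712 counts (median 11530915) fell on genes in each library, and mitochondrial genes took 26.1% to 38.0% of them. The libraries of 6 HFD animals stood apart, since genes of stratified squamous epithelium, a tissue that the colon lacks, summed to more than 100 TPM (a level corrected for transcript length and depth) in HFD F animals 1, 3, 4 and 5 and in HFD M animals 2 and 4. The highest such sum in the CD groups was 16 TPM. Skeletal and cardiac muscle genes summed to between 10.1 and 689 TPM in the HFD F and HFD M groups, against 11.3 to 167 TPM in the CD groups. The main gene-by-gene tests that involve HFD are therefore also given without these 6 libraries. Summed levels, ratios and results that use a score of other genes were not repeated without them.

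Contractile genes were among the abundant transcripts of the tissue and none of the 33 was without counts in any group. Averaged over the 30 animals and expressed per length as TPM, the smooth muscle actin Acta2 (chr19:34241090-34255336, minus strand, GRCm38) was the highest at 1058 TPM. It was followed by the smooth muscle myosin heavy chain Myh11 (chr16:14194527-14291408) at 800 TPM, the actin-associated transgelin Tagln (chr9:45929628-45936058) at 785 TPM and the enteric actin Actg2 (chr6:83512905-83536265) at 718 TPM. The regulatory light chain Myl9 reached 701 TPM and the tropomyosin Tpm2 588 TPM. The lowest members were the Z-disc protein gene Ldb3 at 3.93 TPM, the potassium channel subunit Kcnmb1 at 4.23 TPM and the small heat shock protein gene Hspb7 at 4.67 TPM. Both transcription factors were low, with 7.53 TPM for myocardin (Myocd, chr11:65176561-65269989) and 9.86 TPM for Srf (chr17:46546839-46556162). Sequences shared with other genes covered at most 0.407% of the longest coding transcript of any member, counted in stretches of the read length of 51 bases, which leaves little room for reads to be split between paralogs such as Acta2 and Actg2.

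Since myocardin acts through Srf, the start regions of the members were searched for the CArG box, the motif to which Srf binds. Only exact matches to CC, then 6 letters of A or T, then GG were counted. RefSeq windows (GRCm38.p6) that reach from 250 bases before to 50 bases after a start site were at hand for 28 of the 33 members, and for Actg2, Myh11, Tagln, Myocd and Nexn none was used. A CArG box lay in 6 of 36 windows of the members (16.7%), against 535 of 32851 windows of all genes (1.63%), counting either strand. The members' windows with a box belonged to Myl9, Vcl, Srf, Ldb3 and Dmd. Among the windows of the other smooth muscle genes introduced below, 2 of 23 held a box (8.70%), as did 1 of 23 for regulators of contraction (4.35%) and 1 of 13 for epithelial genes (7.69%). The windows of the members are shown 5′ to 3′ on the strand of the gene with the box in capitals, because these are the members whose start region carries an exact match.
Myl9, chr2:156775288-156775327, plus strand: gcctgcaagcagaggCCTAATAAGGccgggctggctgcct
Vcl, chr14:20929156-20929195, plus strand: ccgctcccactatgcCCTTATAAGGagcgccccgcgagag
Srf, chr17:46556200-46556259, minus strand: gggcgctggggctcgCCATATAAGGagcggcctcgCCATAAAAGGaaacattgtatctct
Ldb3, chr14:34588692-34588731, minus strand: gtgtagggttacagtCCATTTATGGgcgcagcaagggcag
Dmd, chrX:82948757-82948796, plus strand: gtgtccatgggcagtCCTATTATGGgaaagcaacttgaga
The box began 161 bases before the start site in Myl9, 227 bases before it in Vcl and 98 bases before it in Dmd. Srf itself carried a pair of boxes, 82 and 62 bases before its start. In Ldb3 the same box stood 109 bases before one start site and 35 bases before another. Such a match describes letters only. A window without a box says nothing of boxes farther away, or of boxes in it that depart from the exact pattern.

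The question whether female and male colon differed in contractile transcripts on control diet was answered first. The summed level of the 33 genes was lower in every CD female than in any CD male. It ranged from 4766 to 7069 TPM in CD F (median 5490) and from 7336 to 11530 TPM in CD M (median 9542), a ratio of medians of 0.575. Over all genes, the median log2 fold change of CD females over CD males was -0.09 on log2(TPM + 0.1), against 0.01 on counts. As a share of counts, the 33 genes took 1.27% to 1.64% in CD F and 1.65% to 2.5% in CD M. The other groups lay between these, with medians of 7140 TPM in HFD F, 7368 TPM in HFD M and 7449 TPM in HFD+E2 M, and their ranges overlapped each other and those of CD M. HFD F reached from 5032 to 8398 TPM, HFD M from 7227 to 10760 TPM and HFD+E2 M from 6339 to 10785 TPM. The ranges of HFD F and CD F overlapped as well.

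**Figure D1:**
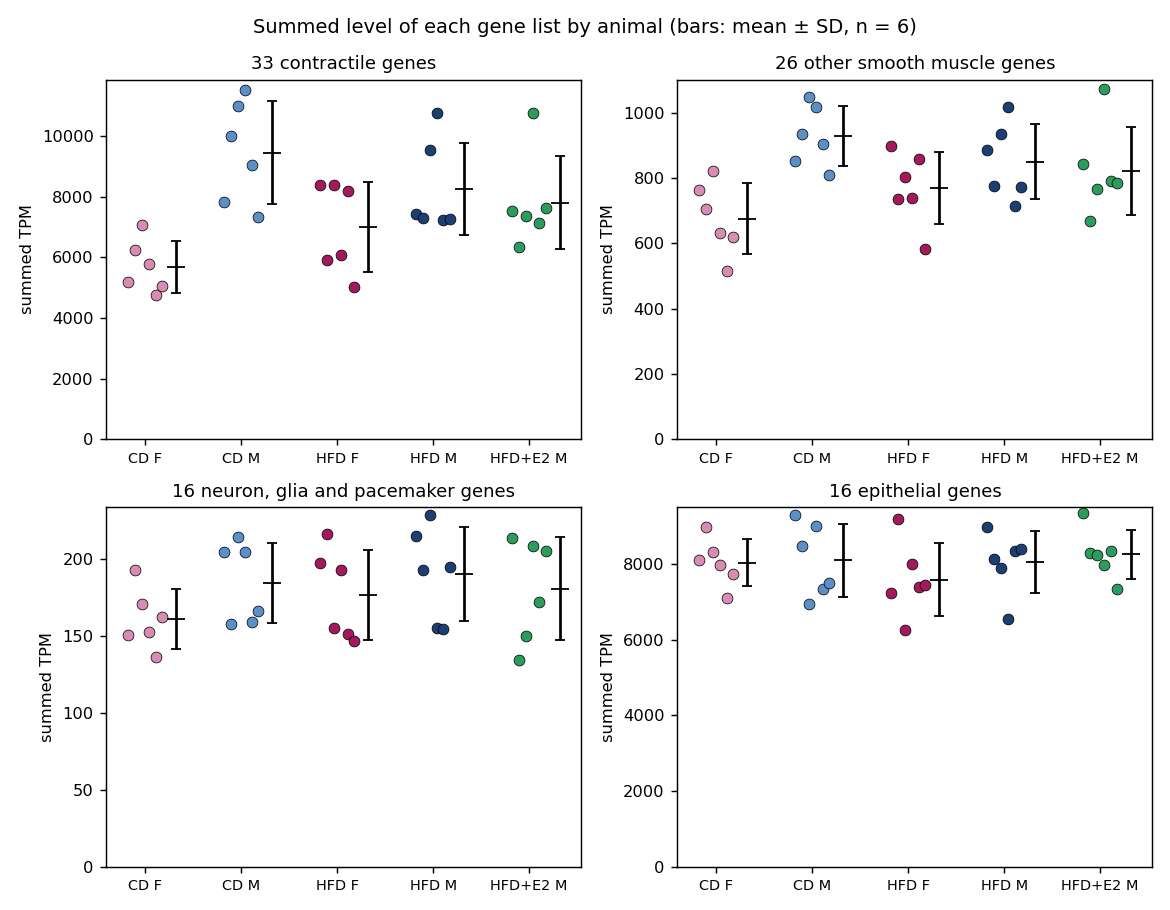
Summed TPM of 4 gene lists (y axes, linear from 0) in each animal (points) of the 5 groups (x axes), with the mean ± SD of 6 animals beside them. The contractile genes of the CD females, 4766 to 7069 TPM, lie below those of all CD males, 7336 to 11530 TPM, while the epithelial genes lie between 6257 and 9339 TPM in all groups.

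Gene by gene, 32 of the 33 had a lower estimate in CD females and 17 were significantly lower (edgeR quasi-likelihood test, Benjamini-Hochberg adjusted p below 0.05 over 14922 genes). None was significantly higher. Of all genes tested, 2.92% were called in either direction and 2.14% were called lower. The median log2 fold change of the members was -0.55, against 0.01 for all genes. At the looser threshold of an unadjusted p below 0.05 with a log2 fold change over 0.4 in size, 26 members were lower, while 9.15% of all genes passed it. In log2 CPM (counts scaled to the library), 8 members did not overlap between the groups (Actg2, Synm, Tpm1, Flna, Pgm5, Csrp1, Ppp1r12b and Dmd), all lower in females, as were 1.49% of all genes. The choice of animals moved the number of significant members: it was 8 without CD M animal 3, 9 without CD M animal 2, 10 without CD M animal 5 or CD F animal 6, 11 without CD M animal 4 or CD F animal 4, and 27 without CD M animal 1.

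Among the 9 genes of the actin thin filament, all had lower estimates in CD females and 5 were significantly lower. Actg2, the actin typical of gut smooth muscle, had the largest difference. It ranged from 382 to 527 TPM in CD F (median 442) and from 668 to 1357 TPM in CD M (median 939), without overlap. Its log2 fold change was -0.95 ± 0.14 (SE, n = 6 per group, edgeR adjusted p = 0.00221), so that males were 1.94-fold higher. Acta2, the actin shared with vascular muscle, ranged from 609 to 1031 TPM in CD F (median 796) and from 946 to 1805 TPM in CD M (median 1293), and the ranges overlapped. Its log2 fold change was -0.66 ± 0.15 (edgeR adjusted p = 0.0243). Tagln ranged from 415 to 783 TPM in CD F (median 628) and from 754 to 993 TPM in CD M (median 890), with some overlap, and had the smallest significant difference of the thin filament genes (-0.43 ± 0.11, edgeR adjusted p = 0.0371). The tropomyosin Tpm1 was lower by -0.60 ± 0.10 (edgeR adjusted p = 0.00423) and the actin- and calmodulin-binding caldesmon Cald1 by -0.66 ± 0.14 (edgeR adjusted p = 0.0205). Tpm2 had a larger estimate, -0.78, but also a larger error of 0.22, and was not significant (edgeR adjusted p = 0.0766). The actin nucleator Lmod1 (-0.69, adjusted p = 0.0724), calponin Cnn1 (-0.53, adjusted p = 0.224) and smoothelin Smtn (-0.50, adjusted p = 0.336) were not significant either.

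The myosin genes behaved alike, with lower estimates in all 4 and significance in 3. Myl9 ranged from 424 to 579 TPM in CD F (median 516) and from 647 to 1101 TPM in CD M (median 964), without overlap in TPM. Its log2 fold change was -0.73 ± 0.16 (edgeR adjusted p = 0.0205), and Myl9 is one of the CArG-bearing genes shown above. Mylk, the light chain kinase that starts contraction, ranged from 108 to 163 TPM in CD F (median 116) and from 158 to 240 TPM in CD M (median 196), where the highest female exceeded the lowest male (-0.53 ± 0.13, edgeR adjusted p = 0.0370). Ppp1r12b, a targeting subunit of the myosin phosphatase that ends contraction, differed by -0.53 ± 0.09 (edgeR adjusted p = 0.00519). Myh11 ranged from 458 to 803 TPM in CD F (median 559) and from 707 to 1206 TPM in CD M (median 1080). At -0.66 ± 0.18 its estimate was as large as that of Acta2, but it did not pass the threshold (edgeR adjusted p = 0.0583).

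Of the 11 genes that anchor the filaments, all had lower estimates and 7 were significantly lower. Csrp1, a LIM protein of the actin cytoskeleton, ranged from 276 to 452 TPM in CD F (median 357) and from 477 to 815 TPM in CD M (median 664). The groups did not overlap, and the log2 fold change was -0.77 ± 0.14 (edgeR adjusted p = 0.00686). Desmin (Des), the muscle intermediate filament, ranged from 212 to 317 TPM in CD F (median 273) and from 299 to 520 TPM in CD M (median 418). It passed the threshold only narrowly (-0.59 ± 0.15, edgeR adjusted p = 0.0492) and kept significance in 3 of 12 fits that left out 1 animal. Its partner synemin (Synm, -0.58 ± 0.11, edgeR adjusted p = 0.00731) was called in all 12. Of the other significant members of every role, Mylk and Synpo2 were called in 3 of these fits, Tagln in 4, Casq2 in 6, Acta2 in 7, Myocd and Myl9 in 8, Cald1 in 10, and Actg2, Tpm1, Ppp1r12b, Csrp1, Pgm5, Flna and Dmd in 12. The adhesion plaque protein Pgm5 (-0.53, adjusted p = 0.00736), the actin crosslinker filamin A (Flna, -0.49, adjusted p = 0.0153), dystrophin (Dmd, -0.46, adjusted p = 0.0177) and the actin-bundling synaptopodin 2 (Synpo2, -0.63, adjusted p = 0.0390) completed the significant genes. Vinculin (Vcl, -0.38), alpha-actinin 1 (Actn1, -0.35), Ldb3 (-0.34) and the actin-binding nexilin (Nexn, -0.55) did not pass.

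Channel and calcium store genes varied more among themselves. Of 5, only the store protein calsequestrin 2 (Casq2) was significantly lower in CD females (-0.61 ± 0.14, edgeR adjusted p = 0.0263), with 6.54 to 9.86 TPM in CD F and 10.2 to 17.2 TPM in CD M. Kcnmb1, the beta subunit that raises the calcium sensitivity of the BK potassium channel and so favours relaxation, ranged from 2.46 to 5.07 TPM in CD F (median 2.83) and from 4.30 to 6.00 TPM in CD M (median 4.92). A single female, animal 3, lay above the lowest male, and the difference was not significant (-0.55 ± 0.17, edgeR adjusted p = 0.0968). Kcnma1, the pore-forming subunit of the same channel, was the 1 member with a higher estimate in females (0.05 ± 0.09, edgeR adjusted p = 0.870), at medians of 12.6 TPM in CD F and 12.8 TPM in CD M. The calcium channel Cacna1c (-0.34) and phospholamban (Pln, -0.44), the brake on the calcium pump of the store, were not significant. Neither were the heat shock protein genes Hspb6 (-0.58 ± 0.44) and Hspb7 (-0.75 ± 0.25), which had wide errors.

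Of the transcription factors, Myocd was significantly lower in CD females (-0.72 ± 0.16, edgeR adjusted p = 0.0227). Its TPM ranged from 3.45 to 8.97 in CD F (median 5.85) and from 4.55 to 13.4 in CD M (median 9.87), with clear overlap. Srf ranged from 7.42 to 9.33 TPM in CD F (median 8.11) and from 9.85 to 14.4 TPM in CD M (median 10.9), without overlap in TPM. In the test on counts its difference was smaller and not significant (-0.34 ± 0.12, edgeR adjusted p = 0.167).

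**Figure D2:**
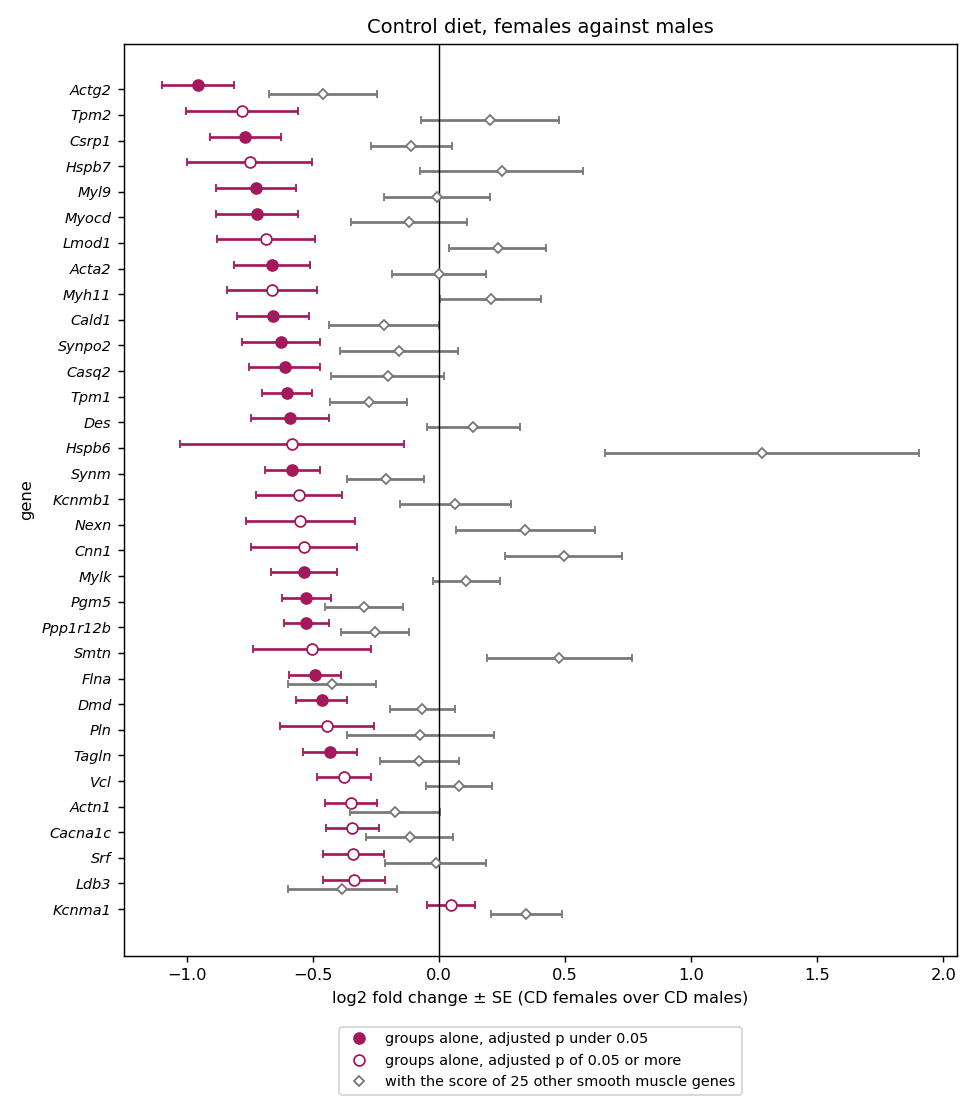
Log2 fold change of CD females over CD males (x axis) with its SE for each of the 33 genes (y axis), from the groups alone (circles, filled where the adjusted p is below 0.05) and with the score of other smooth muscle genes in the fit (diamonds). The circles of 32 genes lie below 0, with a median of -0.55, and the diamonds scatter around 0, with a median of -0.07.

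To see how far the muscle content of the pieces went along with these differences, 26 smooth muscle genes that were no members were read as a separate gauge. They included the junctional protein Jph2, the muscarinic receptor Chrm2 and the cyclic GMP pathway genes Prkg1, Mrvi1 and Pde5a. Of 25 tested, 12 were significantly lower in CD females and none was higher, with a median log2 fold change of -0.52. The lowest adjusted p-values belonged to the LIM protein gene Pdlim3 (-0.67 ± 0.12, edgeR adjusted p = 0.00618), Jph2 (-0.50 ± 0.10, edgeR adjusted p = 0.0101) and Mrvi1 (-0.45 ± 0.09, edgeR adjusted p = 0.0106). Their summed level was 515 to 820 TPM in CD F and 811 to 1047 TPM in CD M, a ratio of medians of 0.726. The other smooth muscle genes thus differed in the same direction and by a similar median as the contractile genes.

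The mean log2 CPM of the 25 outside genes with more than 1 CPM served as a muscle score of each animal. It ranged from 4.65 to 5.09 in CD F and from 5.0 to 5.52 in CD M, so that the groups hardly overlapped in the score itself. Within groups, the score accounted for a median of 54.4% of the variance of a member's log2 CPM, and for more than 50% of it in 19 members. Mylk (89.0%), Myh11 (82.7%), Myl9 (79.1%), Des (78.1%) and Acta2 (78.0%) followed it most closely. Ldb3 (0.523%), Kcnma1 (5.84%), Pgm5 (9.05%), Pln (15.9%) and Flna (17.6%) followed it least. Actg2, with 34.6%, stood well below Acta2. The median SD of a member within groups was 0.283 on the log2 scale and 0.186 once the score was taken out.

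**Figure D3:**
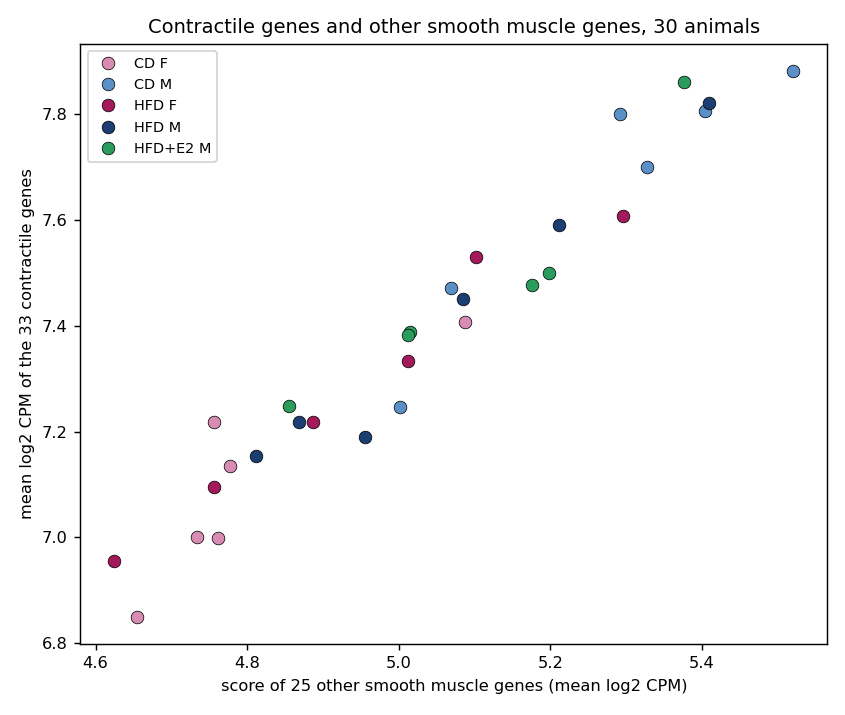
Mean log2 CPM of the 33 contractile genes (y axis) against the score of the 25 other smooth muscle genes (x axis, mean log2 CPM) in 30 animals coloured by group. The points run along one band in all groups, from 4.62 to 5.52 on the score, with the CD females toward its lower end (4.65 to 5.09) and the CD males toward its upper end (5.0 to 5.52). Animals of the other groups lie at either end as well, such as HFD F animal 2 (4.62) and HFD M animal 4 (5.41).

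Multiplying each member's slope on the score within groups by the difference of the score between CD F and CD M, which was -0.47, gave a median of -0.49. The members' own median difference of mean log2 CPM was -0.57, and the median of what was left was -0.10. With the score as a covariate in the edgeR fit, none of the 33 members was significant, 4 had an unadjusted p below 0.05 and the median log2 fold change moved from -0.55 to -0.07. In that fit 0.147% of all genes were called, and 1776 of 14922 genes had an unadjusted p below 0.05. The median SE of a member rose from 0.144 to 0.20. The estimates of Acta2 (0.00 ± 0.19), Myl9 (-0.01 ± 0.21) and Srf (-0.01 ± 0.20) were at 0. Actg2 (-0.46 ± 0.21) and Flna (-0.42 ± 0.17) kept the lowest estimates, and those of Kcnma1 and Cnn1 became 0.35 ± 0.14 and 0.50 ± 0.23, and these 4 were the genes with an unadjusted p below 0.05, all with an adjusted p of 0.358 or more. A score made of 8 core members (Acta2, Actg2, Myh11, Tagln, Cnn1, Des, Mylk and Myl9) left 0 of the other 25 members significant and 0.503% of all genes called. In this comparison sex and muscle score can hardly be told apart, since only 1 female lay above any male in the score, namely above 2 of them.

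Other tissue components moved with the contractile genes to differing degrees, and their part was not tested beyond the fits given here. Fibroblast genes summed to 430 to 827 TPM in CD F and 751 to 1204 TPM in CD M, with 3 of 12 genes significantly lower in females, and with their score as a covariate no member was significant, at a median log2 fold change of -0.29, while 0.0871% of all genes were called. Genes of pericytes and vessel walls summed to 44.2 to 74.5 TPM in CD F and 75.1 to 106 TPM in CD M. B cell genes, a sign of lymphoid follicles, summed to 15.6 to 67.5 TPM in CD F and 0.859 to 51.6 TPM in CD M, and their score also left 0 members (median -0.33) and 0.228% of all genes significant. Striated muscle genes summed to 11.3 to 26.4 TPM in CD F and 18.8 to 167 TPM in CD M, and their score left 7 members and 1.53% of all genes significant. Epithelial genes summed to nearly equal levels, 7095 to 8972 TPM in CD F and 6931 to 9294 TPM in CD M, and their score left 15 members and 2.43% of all genes significant. The fibroblast and B cell scores thus lowered the calls among all genes as well, from 2.92% without a score.

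Nerve, glia and pacemaker cells sit between and within the muscle layers, so that their genes give another view of the muscle coat. These 16 genes summed to 137 to 193 TPM in CD F and 158 to 215 TPM in CD M, a ratio of medians of 0.849, with a median log2 fold change of -0.10. As a share of counts, their medians were 0.0416% in CD F and 0.0388% in CD M. Only Kit, the receptor of the pacemaker cells, was significant of the 15 tested, and it was higher in CD females (0.42 ± 0.11, edgeR adjusted p = 0.0404). With the score of these genes as a covariate, 7 contractile genes and 1.86% of all genes were significant, and the median of the contractile genes was -0.42. The nerve and pacemaker genes thus had a smaller median difference than the contractile genes, and the difference between the lists was not tested.

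Of 26 regulators of contraction that many other cell types also express, 5 were significantly lower in CD females, none was higher, and the median log2 fold change was -0.28. Whether this list differed from the contractile genes was not tested. Those with the lowest adjusted p-values were the integrin-linked kinase Ilk (-0.54 ± 0.10, edgeR adjusted p = 0.00615), the caveolar coat protein Ptrf (-0.60 ± 0.11, edgeR adjusted p = 0.00642) and the plasma membrane calcium pump Atp2b4 (-0.58 ± 0.10, edgeR adjusted p = 0.00657). With the muscle score in the fit, 0 of the 26 were significant and the median was -0.07.

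The same sex comparison on high-fat diet gave no significant member, and 0.0988% of all 15179 genes were called. An unadjusted p below 0.05 was reached by 5 members and by 773 of all genes. DESeq2 called 0 members as well, and 50 of 19831 genes. The estimates of 24 members were lower in HFD females, with a median log2 fold change of -0.09, which ran from -0.18 without HFD F animal 5 to 0.02 without HFD M animal 4. At the looser threshold Actg2 and Pln were lower, while 3.09% of all genes passed it. Leaving out 1 animal gave 1 to 3 members, with 3 without HFD F animal 5 and 1 without HFD F animal 1, 4 or 6 or HFD M animal 2, 3 or 4. Actg2 ranged from 384 to 785 TPM in HFD F (median 620) and from 607 to 1090 TPM in HFD M (median 896), with overlap (-0.54 ± 0.16, edgeR adjusted p = 0.746). Acta2 reached medians of 1036 TPM in HFD F and 1088 TPM in HFD M, and Myh11 medians of 768 and 725 TPM. Tagln (medians 724 and 831 TPM), Des (331 and 383 TPM), Mylk (162 and 168 TPM), Kcnmb1 (4.11 and 4.99 TPM), Myocd (7.79 and 6.60 TPM) and Srf (9.27 and 10.2 TPM) also overlapped between the sexes. Without the 6 libraries rich in squamous genes, the median of the members was -0.37, 30 of 33 estimates were lower in females and 4 passed the looser threshold, as did 2.14% of all genes, with 2 female and 4 male animals left. Ldb3 was highest in 2 of those libraries, HFD M animal 2 (7.67 TPM) and HFD F animal 1 (7.43 TPM), in which the striated muscle genes summed to 689 and 284 TPM.

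High-fat diet was then compared with control diet within each sex. In females no member was significant by edgeR or DESeq2. By edgeR 0.0199% of all 15061 genes were called, while DESeq2 called 214 of 20356 genes. An unadjusted p below 0.05 was reached by 2 members and by 856 of all genes in the edgeR fit. The estimates of 32 members were higher on HFD, the exception being Kcnma1 (-0.10 ± 0.10), with a median log2 fold change of 0.23, but none passed the looser threshold, which 3.67% of all genes passed. Leaving out 1 animal gave 0 to 4 members past the looser threshold, with 4 without HFD F animal 2, 3 without CD F animal 3, 2 without HFD F animal 6 and 1 without CD F animal 1 or HFD F animal 4. Casq2 had the lowest p-value (0.40 ± 0.12, edgeR adjusted p = 0.527), with 6.54 to 9.86 TPM in CD F and 8.68 to 13.7 TPM in HFD F. Actg2 had medians of 442 TPM in CD F and 620 TPM in HFD F (0.26 ± 0.14, edgeR adjusted p = 0.942). The direction turned without the 4 HFD females rich in squamous genes, where the median was -0.09 and 25 estimates were lower on HFD. In that fit 0 members and 2.36% of all genes passed the looser threshold. Only HFD F animals 2 and 6 were left, which had the lowest member means of the group (6.96 and 7.10 log2 CPM). Squamous content and the choice of animals cannot be told apart there. With the muscle score in the fit the median was 0.04.

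In males no member was significant either, nor was any other of 14991 genes (0% called; 904 genes had an unadjusted p below 0.05, 10 of them members). DESeq2 called 25 genes, none of them a member. The estimates of 32 members were lower on HFD, with a median log2 fold change of -0.28. The looser threshold was passed by 2 members, Hspb7 (-0.55 ± 0.20) and Lmod1 (-0.43 ± 0.17), and by 2.9% of all genes. Their number rested on single animals, since it was 10 without HFD M animal 4, 9 without CD M animal 1, 5 without HFD M animal 3, 3 without CD M animal 5 or 6, and 1 without CD M animal 4 or HFD M animal 1, 2 or 6. Actn1 had the lowest p-value (-0.39 ± 0.11, edgeR adjusted p = 0.605). Myh11 ranged from 707 to 1206 TPM in CD M (median 1080) and from 607 to 1193 TPM in HFD M (median 725), so that the medians differed while the ranges nearly coincided. Pln was the 1 member with a higher estimate on HFD (0.25 ± 0.18, edgeR adjusted p = 0.854), with medians of 8.16 TPM in CD M and 11.9 TPM in HFD M. Without the HFD males 2 and 4 the median was -0.32 and 6 members passed the looser threshold, as did 3.64% of all genes, and with the muscle score in the fit the median was 0.00.

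With all animals, the estimated effect of diet pointed upward in females, where it turned without the libraries rich in squamous genes, and downward in males, and a test of this difference itself gave no significant member. The interaction of sex and diet had a positive estimate in all 33 genes by edgeR, with a median of 0.45 on the log2 scale, and 0% of 15800 genes were called (1066 had an unadjusted p below 0.05, among them 12 members). DESeq2 called 3 genes, none of them a member. The looser threshold was passed by 9 members, and 5.18% of all genes passed it. Actn1 had the lowest p-value (0.50 ± 0.14, edgeR adjusted p = 0.410), before Ppp1r12b (0.46 ± 0.15) and Cald1 (0.66 ± 0.22). The muscle score differed between HFD and CD by 0.15 in females and by -0.21 in males. With the score in the fit the median of the interaction was 0.05, and 0 members passed the looser threshold. Without the 6 libraries rich in squamous genes the median was 0.21, 31 estimates were positive and 2 negative, 0 members were significant and 1 passed the looser threshold, which 2% of all genes passed.

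E2 was compared with vehicle in HFD males. No member was significant by edgeR or DESeq2, and the median log2 fold change was 0.05. By edgeR 0.00666% of all 15010 genes were called, while DESeq2 called 50 of 15754 genes. An unadjusted p below 0.05 was reached by 3 members and by 1535 of all genes in the edgeR fit. The estimates were split, 21 higher and 12 lower with E2. The looser threshold was passed by 3 members and by 5.87% of all genes. Hspb7 (0.48 ± 0.16) and Lmod1 (0.47 ± 0.19) had higher and Pln (-0.56 ± 0.19) had lower levels with E2, all with an edgeR adjusted p of 0.455 or more. Pln ranged from 6.43 to 13.7 TPM in HFD M (median 11.9) and from 3.63 to 8.84 TPM in HFD+E2 M (median 6.93), with overlap. Hspb7 ranged from 3.14 to 4.95 TPM in HFD M (median 4.26) and from 4.48 to 6.24 TPM in HFD+E2 M (median 5.25). Median levels with vehicle and with E2 were 1088 and 967 TPM for Acta2, 896 and 699 TPM for Actg2, 725 and 781 TPM for Myh11, and 831 and 748 TPM for Tagln. They were 383 and 378 TPM for Des, 168 and 160 TPM for Mylk, 6.60 and 6.46 TPM for Myocd and 10.2 and 10.1 TPM for Srf. On log2(TPM + 0.1) the median log2 fold change of all genes was -0.14 in this comparison. HFD+E2 M animal 4 had the highest sum of contractile genes in its group, and without it the median log2 fold change was -0.03. Leaving out 1 animal gave 2 to 5 members past the looser threshold, with 5 without HFD M animal 4 and 2 without HFD M animal 1, 2 or 6 or HFD+E2 M animal 4. Without the HFD males 2 and 4 the median was 0.14, with 24 estimates higher and 9 lower, 0 members were significant and 3 passed the looser threshold, as did 3.45% of all genes. With the muscle score in the fit the median was -0.01, and 7 members had an unadjusted p below 0.05 but an adjusted p of 0.319 or more. In that fit 1664 of 15010 genes had an unadjusted p below 0.05.

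**Figure D4:**
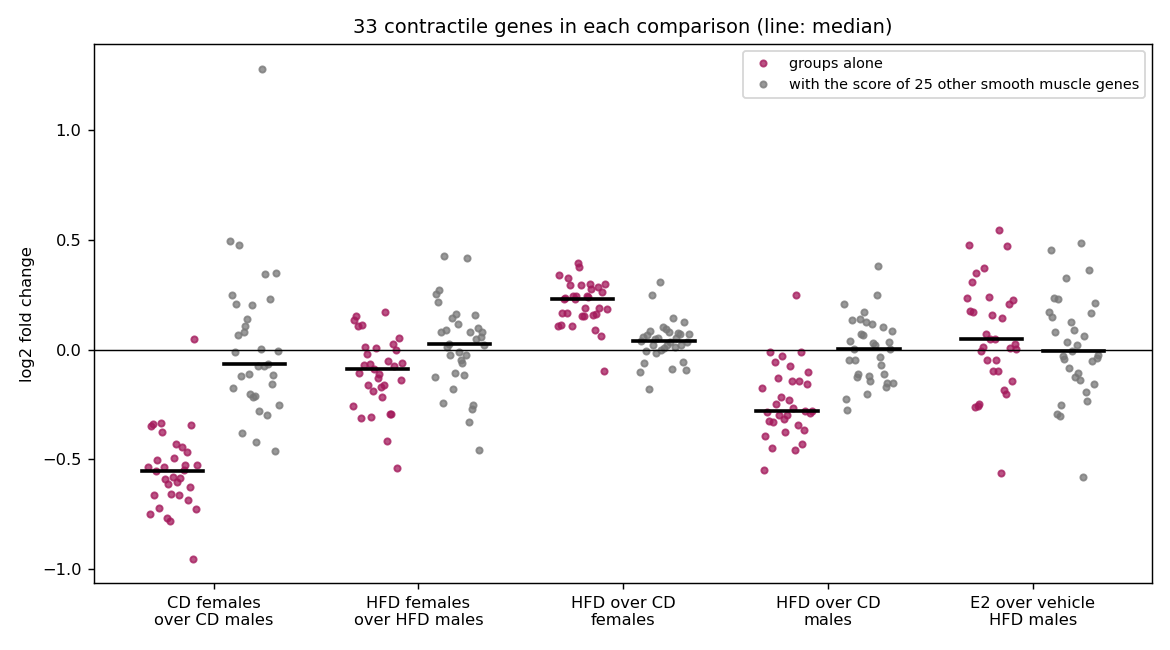
Log2 fold change (y axis) of the 33 contractile genes (points) in the 5 comparisons (x axis), from the groups alone and with the score of other smooth muscle genes in the fit, with medians as lines. The medians from the groups alone are -0.55, -0.09, 0.23, -0.28 and 0.05, and those with the score are -0.07, 0.03, 0.04, 0.00 and -0.01.

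Over the 5 comparisons, the part of the difference that ran along the muscle score followed the difference itself. The score differed by -0.47, -0.11, 0.15, -0.21 and 0.05 in the order in which the comparisons are plotted. The members' median differences of mean log2 CPM were -0.57, -0.10, 0.20, -0.29 and 0.05, and after subtraction of slope times score difference the medians left were -0.10, 0.03, 0.02, -0.05 and 0.00. These comparisons share control groups and are not independent of each other. Outside the CD comparison of the sexes the score also narrowed the errors, with a median SE of 0.109 against 0.161 in HFD females against HFD males, 0.122 against 0.148 in HFD against CD females, 0.125 against 0.161 in HFD against CD males and 0.116 against 0.157 for E2.

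Ratios of partner genes within a library are free of the amount of muscle only where both genes come from muscle alone. Whether this held for the pairs used was not tested. In the 5 comparisons 4 ratios were tested, 20 tests in all. None was significant after adjustment over the 20. The ratio of Kcnmb1 to Kcnma1 in TPM, beta to pore subunit of the BK channel, ranged from 0.198 to 0.358 in CD F (median 0.226) and from 0.321 to 0.432 in CD M (median 0.394). Its log2 was lower in CD females by a mean of -0.67 (exact permutation test, two-sided, p = 0.00649, adjusted p = 0.0649). The ratio ranged from 0.335 to 0.507 in HFD M (median 0.370) and from 0.208 to 0.336 in HFD+E2 M (median 0.297). Only the highest E2-treated animal reached the range of the vehicle group, and the mean log2 difference was -0.46 (exact permutation test, two-sided, p = 0.00433, adjusted p = 0.0649). On log2 CPM in place of TPM both ratio differences passed, at -0.62 and -0.48 with an adjusted p = 0.0433 each (exact permutation tests). In HFD F the ratio had a median of 0.351. Of the variance within groups, 49.7% of that of Kcnmb1 but 5.84% of that of Kcnma1 ran along the muscle score, and the part of muscle content in this ratio was not tested.

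The ratio of Actg2 to Acta2 had a median of 0.569 in CD F, 0.720 in CD M, 0.561 in HFD F, 0.760 in HFD M and 0.738 in HFD+E2 M. Its log2 was lower in females by -0.32 on CD (exact permutation test, two-sided, p = 0.0173, adjusted p = 0.0866) and by -0.38 on HFD (p = 0.0108, adjusted p = 0.0722). The ranges overlapped on either diet, 0.488 to 0.636 in CD F against 0.597 to 0.843 in CD M, and 0.474 to 0.713 in HFD F against 0.660 to 0.857 in HFD M. Diet and E2 gave smaller differences of this ratio, from -0.01 to 0.10 on the log2 scale. Of the variance within groups, 34.6% of that of Actg2 but 78.0% of that of Acta2 ran along the muscle score. The part of muscle content in this ratio was not tested. Tpm2 to Tpm1 and Des to Synm, a pair of tropomyosins and a pair of intermediate filament proteins, had adjusted p-values of 0.361 or more in every comparison. The smallest p that 6 against 6 animals allow is 0.00216.

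**Figure D5:**
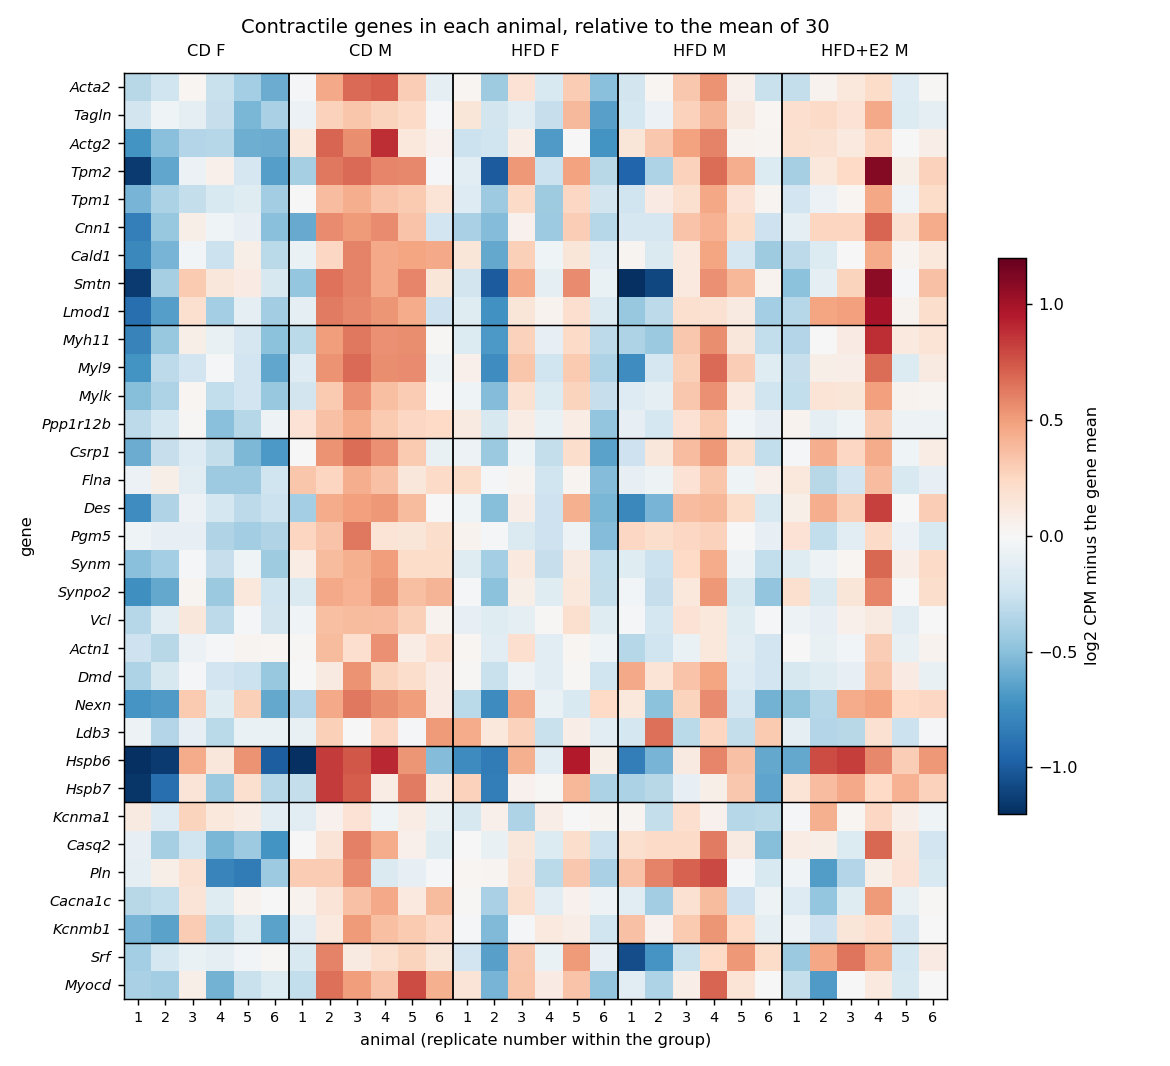
Log2 CPM of each contractile gene (y axis, ordered by role and level) in each of the 30 animals (x axis), shown as the difference from the gene's mean over all animals on a colour scale from -1.2 to 1.2. Blue prevails in CD F animals 1, 2, 4, 5 and 6, where the mean of the members was 7.22 or less, and in HFD F animals 2 (6.96) and 6 (7.10). Means of HFD F animal 4 (7.22) and HFD M animals 1 (7.15), 2 (7.22) and 6 (7.19) were also low. Red prevails in CD M animals 2 to 5, HFD F animal 5, HFD M animals 3 and 4 and HFD+E2 M animal 4. Kcnma1, Ldb3 and Pln depart from the pattern of the other genes.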

How the data were processed

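RNA-seq libraries of colon from 30 mice were compared in 5 groups of 6 taken from the sample titles. The authors aligned paired reads of 51 bases to mm10 (GRCm38) with STAR and deposited raw gene counts from featureCounts (1 table) and TPM, FPKM and coverage per gene from StringTie (1 table per library). Trim Galore and bcl2fastq 2.19.1.403 are also named in the submitters' processing notes. The strand setting of the counting and software versions other than this are not given in the sources used here. The deposited counts were used for the tests across all genes and the deposited TPM for levels, ratios and the limma alternative, while the deposited FPKM and coverage signal were not used. The counts of each of the 30 libraries matched the TPM of the same library best.

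Counts were tested pairwise between 2 groups (12 libraries) with edgeR 4.0.16 in R 4.3.3 (filterByExpr, TMM scaling, robust quasi-likelihood fit), with Benjamini-Hochberg adjustment over all genes tested and a threshold of 0.05. All 33 members passed the filter in every comparison. Log2 CPM used a prior count of 2. The SE is the log2 fold change divided by the square root of F. The looser threshold is that of the study's methods, read as unadjusted. The study used DESeq2, which was run as an alternative (1.42.0), as was limma 3.58.1 on log2(TPM + 0.1). Scores of gene lists are mean log2 CPM over listed genes with more than 1 CPM on average. Ratios are differences of log2(TPM + 0.1), tested by exact permutation in scipy 1.17.1. The steps were tested on simulated data. The members and lists were chosen with earlier results of these data known. Values were given for the anchor genes (Acta2, Actg2, Myh11, Tagln, Des, Mylk, Kcnmb1, Myocd, Srf), for the 3 members with the largest significant difference in each direction, and for up to 3 genes of the other muscle lists by adjusted p. Other genes, Kit among them, were named after their values were seen. A depth of 8667177 to 17243712 counts per library stood behind the values, and the lowest count of any member in any library was 41, for Hspb7.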

Additional observations from a re-analysis of the deposited data

Results flagged for a closer look

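In each group of 6 animals, the highest and the lowest value of the summed contractile genes and of the 11 genes given by range throughout were compared with the rest, 60 groups in all, and 6 held a value whose gap to its neighbour took more of the whole range than the 95% limit of Dixon's test allows. Chance alone flags about 1 in 20 such groups. Of these 6, 4 concerned HFD+E2 M animal 4, which was far above the other animals of its group in the summed TPM of the contractile genes (10785 TPM), in Myh11 (1369 TPM), in Des (603 TPM) and in Csrp1 (664 TPM). The other two were Kcnmb1 in CD F animal 3 (5.07 TPM, high) and Myocd in HFD M animal 4 (13.0 TPM, high), the latter from a library that also held squamous genes. No cause was tested for these values.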

How the results depend on the processing

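The number of contractile genes that were significantly lower in CD females than in CD males, 17, was 0 with the score of other smooth muscle genes in the fit, 0 of 25 with the score of core members, 0 with the fibroblast score, 0 with the B cell score, 7 with the nerve and pacemaker score, 7 with the striated muscle score and 10 with the squamous score. It was 5 in limma on log2(TPM + 0.1), 5 on log2(TPM + 1) and 26 at the looser threshold. Leaving out 1 animal gave 8 to 27. Other scalings, filters, the fit on all 30 libraries, DESeq2 (23) and the epithelial score kept it within 1.5 times. Among all genes, 435 of 14922 were called in the main fit and 774 of 18013 by DESeq2. The squamous score left 296 of 14922 genes significant. Limma called 94 of 28009 genes on log2(TPM + 0.1) and 104 of 28009 on log2(TPM + 1). The fibroblast, B cell and striated muscle scores, the score with the block and the fits without libraries rich in squamous genes were chosen after seeing the data. The cause of these shifts was not tested.

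With the score of other smooth muscle genes, the sign of Acta2 (0.00072), Mylk (0.11) and Des (0.14) turned. With that score and the replicate block, the sign of Myocd (0.62), Des (0.28) and Tagln (0.0065) turned, and 0 members and 3 of 14922 genes were significant. The replicate block alone gave 29 significant members and 941 of 14922 genes. Replicate numbers were not taken to pair the animals, since the sample titles name no pairing. Correlations of same-numbered animals' deviations in CD F and CD M ran from -0.141 to 0.514, and 5 of 6 were over 0.1. In CD F, 4 of 6 animals correlated best with their own number. This was also 4 of 6 in HFD against CD males and in E2 against vehicle. It was 1 of 6 in HFD females against HFD males and 0 of 6 in HFD against CD females. The submitters' sample numbers rose with the replicate number within every group. Whether this numbering followed a processing order or batch was not tested.

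In the other comparisons, 0 members were significant under every alternative that used the adjusted threshold, leaving out 1 animal included (0 to 0). The looser threshold gave 2 in HFD females against HFD males, 2 in HFD against CD males and 3 for E2. For the ratios of partner genes, log2 CPM gave 1 significant ratio in CD females against CD males and 1 for E2, and leaving out 1 animal gave 0 to 1 in the former and 0 to 0 elsewhere. With E2 the median log2 fold change of the members, 0.05 on counts, was -0.10 on log2 TPM. The median of all genes moved as well, from 0.001 on counts to -0.14 on log2(TPM + 0.1). Hspb7, with 41 to 222 counts per library, had a within-group SD of 0.408 in log2 CPM, against a median of 0.283 for the members. Spread did not simply follow the counts. Kcnmb1, with 84 to 266 counts per library, had an SD of 0.256, and Tpm2, with 2991 to 18616, had 0.514.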
